A study of Mus musculus with 6 samples.

Results

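The mismatch repair genes Mlh3, Msh3, Msh6, Pms1, Pms2 and Exo1 were followed at the messenger RNA level in LSK cells that lacked Tet1 and in wild-type LSK cells. They were taken as every probe set whose platform annotation gave exactly 1 gene symbol equal to one of these names. The rule used no measured value, and 6 genes were found among 18193 named genes, with 13 probe sets among 45037 that were not controls. Msh3 had 4 probe sets, Pms2 and Exo1 had 3 each, and Mlh3, Msh6 and Pms1 had 1 each. LSK cells are marrow cells without mature lineage markers that carry Sca-1 and Kit, and they contain the haematopoietic stem cells and early multipotent progenitors. Tet1 oxidises 5-methylcytosine in DNA. The groups were Tet1 KO and WT, each of 3 samples on 1 Affymetrix array per sample. All came from bone marrow of mice at 6 months of age, with the strain of both groups given in the labels as CD57BL/6. The labels name no treatment, no sex, no deleted exons and no promoter or Cre for the Tet1 KO, and they do not say whether the samples are from separate mice, so that p-values reflect the spread among these samples, which may be technical. The title of the series presents Tet1 as a tumour suppressor in blood cells, and the comparison addresses which transcripts differ when it is missing.

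Mismatch repair removes bases that the replication machinery has put in wrongly, along with small loops left by slipped strands. The error is recognised by a pair of MutS homologues, in which Msh6 makes the pair that binds mispaired bases and short loops and Msh3 the pair that binds longer loops. A pair of MutL homologues is then recruited. Pms2 is the subunit that nicks the new strand, Mlh3 is known above all for crossing over in meiosis, and Pms1 has a less defined part in repair. The exonuclease Exo1 removes the stretch that carries the error, and the replication machinery fills and seals the gap. Loss of this pathway raises the mutation rate and leads to lymphoma in mice, and in activated B cells Msh6 and Exo1 also take part in the diversification of antibody genes.

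The values were log2 probe set intensities as deposited, with array medians that spanned 0.0694. Probe sets differ in how well they bind, so levels were compared between groups and not between probe sets. At all 4 Tet1 probe sets the highest Tet1 KO value was below the lowest WT value, with differences between -1.68 and -0.93 on the log2 scale. Of all probe sets 6.29% were lower without overlap. The adjusted limma p was 0.686 at each Tet1 probe set, so Tet1 itself was not called in this comparison. As a guide to background served the level of the brightest among 27 bacterial control probe sets, which averaged 4.39. Tet1 still exceeded this control on 3 of 3 Tet1 KO arrays at each probe set but 1419896_at, where it did so on 2 of 3. All 6 measured LSK markers exceeded the control on every array. Kit, Cd34, Flt3, Meis1 and Hlf read between 9.07 and 11.55, and Slamf1 read 7.97 on Tet1 KO replicate 2 and 5.63 to 6.01 on the others. Ly6a, which encodes Sca-1, was not analysed here. Of the 3 measured B cell markers, Ms4a1 and Cd22 lay under the control on each array and Cd79a read 5.23 to 6.12. Of the 4 T cell markers, Cd3e and Cd3d lay under it, and Cd4 read 5.34 to 5.67. Cd8a read 5.57, 6.17 and 5.71 in Tet1 KO, against 5.14, 5.25 and 5.45 in WT, without overlap, a difference of 0.53 (SE 0.21) with an unadjusted limma p of 0.0375 and an adjusted p of 0.686. The granulocyte genes S100a8 and S100a9 read between 7.89 and 9.93, with Tet1 KO and WT arrays overlapping. Tet1 KO replicate 2 stood apart. Its correlation over all probe sets with the other arrays was between 0.936 and 0.943, against 0.969 to 0.984 among the other arrays, and its brightest bacterial control read 4.87, against at most 4.37 elsewhere. The 3 mast cell and basophil markers had a median of 1.31 relative to the WT mean on it, against -0.03 and 0.04 on Tet1 KO replicates 1 and 3, with Fcer1a at 5.81, against 3.00 to 3.70 on the other arrays. Mcpt8 read 6.70 on WT replicate 3 as well, against 6.92 on Tet1 KO replicate 2. Car1 of erythroid cells read 6.62 on it, against 8.77 to 9.63 elsewhere, but the other measured erythroid genes did not follow. Slc4a1 read 4.91 on it, against 4.32 to 4.71 elsewhere, and Hba-a1, under the control on every array, lay 0.03 from the WT mean. Csf1r of monocytes read 5.30 on it, against 6.26 to 8.73 elsewhere. S100a8 and S100a9 of the same list lay at 0.42 and -0.37 relative to the WT mean on that array. Tet1 KO replicate 1 was the highest array for Csf1r and Flt3, at 2.19 and 1.26 relative to the WT mean. The part of other cell types in the members' values was not tested. Each group held 1 array with Xist near background, at 3.82 in Tet1 KO replicate 3 and 4.58 in WT replicate 3, and 11.78 to 12.17 on the other 4 arrays.

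The sequence around the start of 5 of the 6 genes was at hand in a RefSeq table of assembly GRCm38.p6, as windows of 300 bases, 250 before the start and 50 from it onward. The windows of 3 genes follow, on the strand of the gene. Msh6 and Pms2 were picked because their brightest probe sets separated the groups, and Msh3 because its probe sets disagreed. Capitals mark CCAAT and the E2F words TTTCCCGC, TTTCGCGC, TTTGCCGC and TTTGGCGC, on either strand.
Msh6 (chr17:87974800-87975099, plus strand, GRCm38.p6): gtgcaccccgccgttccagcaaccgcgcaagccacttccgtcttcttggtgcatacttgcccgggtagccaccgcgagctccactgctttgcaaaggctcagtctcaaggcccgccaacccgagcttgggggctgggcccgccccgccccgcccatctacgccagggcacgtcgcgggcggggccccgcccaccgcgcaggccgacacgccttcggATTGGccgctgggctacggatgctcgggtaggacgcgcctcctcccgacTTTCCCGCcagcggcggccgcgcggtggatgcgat
Msh3 (chr13:92354954-92355253, minus strand, GRCm38.p6): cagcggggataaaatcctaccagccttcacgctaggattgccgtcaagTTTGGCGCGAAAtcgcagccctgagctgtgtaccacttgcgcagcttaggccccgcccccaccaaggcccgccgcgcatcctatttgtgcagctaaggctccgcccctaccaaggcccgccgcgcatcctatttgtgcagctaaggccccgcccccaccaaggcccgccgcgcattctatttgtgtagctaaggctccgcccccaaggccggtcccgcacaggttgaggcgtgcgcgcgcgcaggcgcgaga
Pms2 (chr5:143909751-143910050, plus strand, GRCm38.p6): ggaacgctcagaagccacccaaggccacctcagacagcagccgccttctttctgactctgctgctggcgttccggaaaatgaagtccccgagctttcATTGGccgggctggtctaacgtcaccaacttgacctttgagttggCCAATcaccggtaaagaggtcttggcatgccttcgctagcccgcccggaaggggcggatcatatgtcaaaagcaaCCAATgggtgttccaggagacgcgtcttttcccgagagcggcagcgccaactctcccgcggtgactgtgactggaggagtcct
All 5 genes had a start region with more CpG than the median window, CpG being the dinucleotide that carries the mark on which Tet enzymes act. The windows of Msh6, Msh3, Pms1 and Pms2 held 37, 29, 25 and 19 CpG, and those at both listed starts of Mlh3 held 21 and 22, against a median of 7 over 32851 windows. Their percentiles among all windows were 94.7, 87.7, 82.4 and 72.7, and 76.1 and 77.7 for Mlh3, so such counts were not particular to the members. The array gives no methylation value for any of them. An E2F word was present in Msh6, at position 15 counted from the start, and in Msh3, where TTTGGCGC at position -202 and TTTCGCGC on the other strand at position -198 overlapped. Such a word occurred in 2.3% of all windows. The CCAAT word was found at 1 place each in the windows of Mlh3 and Msh6, at 2 places in Pms1 and at 3 in Pms2, and in 37.4% of all windows. The GC box GGGCGG, also searched on both strands and left in lower case, stood at 5 places in Msh6, at 2 in Pms2, at 1 in Pms1 and at 4 in Msh3, where the copies lay 48 bases apart within a run of near-identical repeats. It was absent from both Mlh3 windows and present in 35.7% of all windows. A match describes the letters of the window and is not a measured binding site.

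Across the 13 probe sets no difference between Tet1 KO and WT passed correction for multiple testing. The brightest probe set of each of the 6 genes was lower on average in Tet1 KO, by 0.06 to 0.42 on the log2 scale, against 43.5% of all genes lower at theirs, but the dimmer probe sets went both ways. In limma, 0 of 13 had a Benjamini-Hochberg adjusted p under 0.05, against 0% of all 45037 probe sets, and the lowest adjusted p of a member was 0.686. An unadjusted p under 0.05 was reached by 3 of 13, against 6.81% of all probe sets. These were Pms2 on the lower side and single probe sets of Msh3 and Exo1 on the higher side. The groups did not overlap at 2 probe sets that were higher in Tet1 KO, against 9.96% of all probe sets, and at 2 that were lower, against 6.29%. In all, 9 of the 13 were lower and 4 higher, and the median difference was -0.20. Over all probe sets 42.9% were lower and the median was 0.06. That background depended on level, since among the 11260 probe sets of highest mean intensity, which held 5 of the members, 66.8% of probe sets were lower and the median was -0.12, and among the 11259 of lowest intensity, which held 0 members, 19.8% were lower and the median was 0.16. With 3 arrays a group, an exact permutation test of 1 probe set cannot give a p below 0.1.

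**Figure D1:**
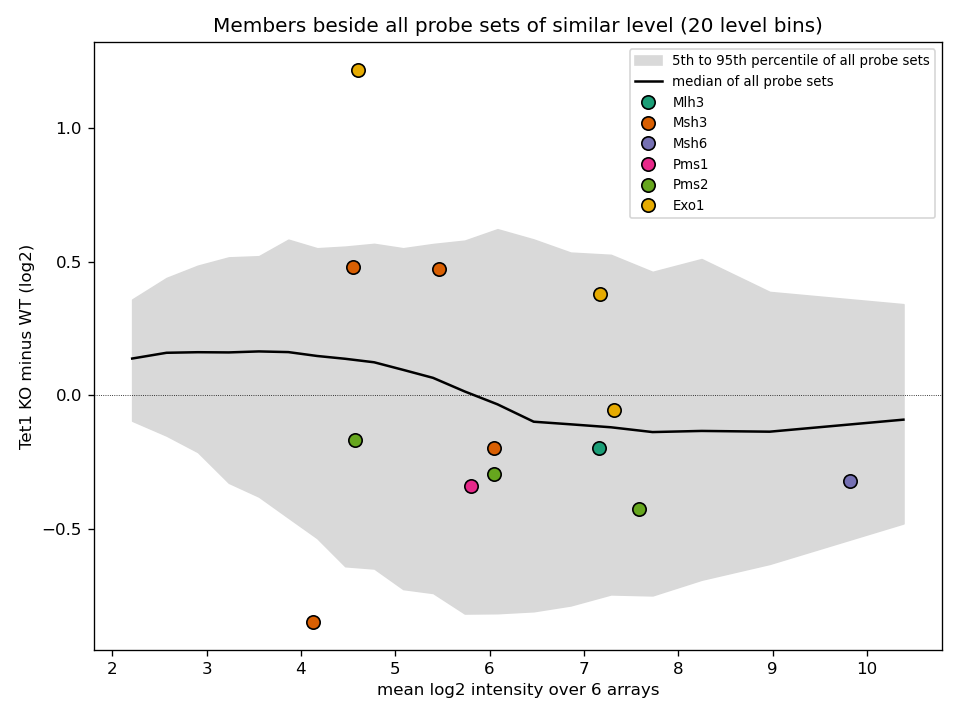
Difference between Tet1 KO and WT (log2, vertical) against mean log2 intensity over the 6 arrays (horizontal) for the 13 mismatch repair probe sets (coloured points), with the median (line) and the 5th to 95th percentile (grey) of all probe sets in 20 bins of level. Exo1 at 1.22 and Msh3 at -0.85 lie outside the grey band at low intensity, and the other 11 points lie inside it.

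Msh6, the mismatch-binding MutS homologue, read 9.64, 9.45 and 9.90 on the Tet1 KO arrays, against 9.98, 10.01 and 9.95 on the WT arrays (probe set 1416915_at). Every Tet1 KO array was below every WT array, and the WT arrays lay close together. The means were 9.66 ± 0.22 in Tet1 KO and 9.98 ± 0.03 in WT (SD, n = 3 each). The difference was -0.32 (SE 0.17), with a 95% interval from -0.71 to 0.08. The unadjusted limma p was 0.0988 and the adjusted p 0.686. Tet1 KO replicate 2 was the lowest array, and without it the difference was -0.21, with an interval from -0.57 to 0.15. The median of all probe sets at this level was -0.09. In bulk RNA, fewer cells of a type and less RNA per cell cannot be told apart.

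Msh3, the MutS homologue for longer loops, gave no single direction. Its brightest probe set, 1422261_a_at, read 6.05, 5.45 and 6.35 on the Tet1 KO arrays, against 6.33, 6.27 and 5.84 on the WT arrays, a difference of -0.20 (SE 0.27), with overlapping groups. Without Tet1 KO replicate 2, its lowest array, the value was 0.05. At 1424166_at the same array was the highest. The Tet1 KO values there were 5.36, 6.38 and 5.36, against 5.02, 5.46 and 5.20 in WT, a difference of 0.47 (SE 0.31), which was 0.13 without Tet1 KO replicate 2. Thus that array lay 0.70 below the WT mean at one Msh3 probe set and 1.15 above it at another.

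The remaining Msh3 probe sets were dim. At 1430643_at the values were 4.89, 4.86 and 4.63 in Tet1 KO, against 4.25, 4.54 and 4.16 in WT, and the groups did not overlap. This was a difference of 0.48 (SE 0.17) with an unadjusted limma p of 0.0280 and an adjusted p of 0.686, and an unadjusted p of 0.0512 without Tet1 KO replicate 2. The brightest bacterial control was exceeded on 2 of 3 Tet1 KO and 1 of 3 WT arrays. At 1446511_at, which exceeded it on 0 of 3 Tet1 KO and 2 of 3 WT arrays, the values were 3.54, 3.52 and 4.05 in Tet1 KO, against 4.51, 3.77 and 5.37 in WT. The WT arrays spread widely there, and the difference of -0.85 (SE 0.40) became -1.24 without WT replicate 2 and -0.44 without WT replicate 3. Averaged over its 4 probe sets, Msh3 differed by -0.02 (SE 0.13), with a 95% interval from -0.32 to 0.28.

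Pms2, the MutL homologue that nicks the strand, was lower on average in Tet1 KO at each of its 3 probe sets, of which 1 separated the groups. Its brightest probe set, 1423539_at, read 7.15, 7.45 and 7.51 in Tet1 KO, against 7.85, 7.80 and 7.73 in WT. All 3 Tet1 KO arrays were below all WT arrays. The means were 7.37 ± 0.19 in Tet1 KO and 7.79 ± 0.06 in WT (SD, n = 3 each), and the difference was -0.42 (SE 0.16), or 0.746 times the WT level, with a 95% interval from -0.80 to -0.05. The unadjusted limma p was 0.0332 and the adjusted p 0.686. Without Tet1 KO replicate 2 the difference was -0.46 and the unadjusted p 0.0307. Over the 16 alternatives that tested this probe set the difference ran from -0.49 to -0.30, and the unadjusted p, under 0.05 in 6 of them, from 0.0173 to 0.108, with adjusted p-values of at least 0.508. The smallest difference came with cyclic loess, which removes trends with level.

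Neither other Pms2 probe set separated the groups. At 1436273_at the values were 5.79, 5.46 and 6.46 in Tet1 KO, against 6.69, 5.88 and 6.03 in WT, a difference of -0.29 (SE 0.33). It was -0.07 when Tet1 KO replicate 2 was left out, -0.57 when Tet1 KO replicate 3 was and -0.05 when WT replicate 1 was. At 1432421_at the Tet1 KO arrays spread widely, at 4.47, 5.47 and 3.54, against 4.71, 4.44 and 4.84 in WT. That difference of -0.17 (SE 0.46) became -0.65 when Tet1 KO replicate 2 was left out and 0.31 when Tet1 KO replicate 3 was, and the bacterial control was exceeded on 2 of 3 Tet1 KO and 3 of 3 WT arrays. The mean of the 3 Pms2 probe sets differed by -0.29 (SE 0.16), with an interval from -0.68 to 0.09.

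Pms1 and Mlh3, the remaining MutL homologues, had overlapping groups. Pms1 read 5.50, 5.93 and 5.48 in Tet1 KO, against 5.75, 6.11 and 6.07 in WT (1438071_at), a difference of -0.34 (SE 0.20) with a 95% interval from -0.81 to 0.13. Tet1 KO replicate 2 was here the highest Tet1 KO array. Without it the difference was -0.49, with an interval from -0.90 to -0.07, an unadjusted limma p of 0.0284 and an adjusted p of 0.620. Mlh3 read 7.38, 6.75 and 7.05 in Tet1 KO, against 7.54, 6.98 and 7.26 in WT (1426052_at), a difference of -0.20 (SE 0.23) that was -0.04 without Tet1 KO replicate 2. The Mlh3 values spread as widely within each group as between them, with SDs of 0.32 in Tet1 KO and 0.28 in WT.

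Exo1, the exonuclease, had probe sets that disagreed. Its brightest probe set, 1418026_at, read 6.61, 8.50 and 6.78 in Tet1 KO, against 7.24, 7.28 and 7.53 in WT. Tet1 KO replicate 2 was the highest of all 6 arrays there and the other Tet1 KO arrays were the lowest, so the mean difference was -0.06 (SE 0.49). The neighbouring probe set 1418027_at, annotated with the same source sequence, read 7.79, 6.79 and 7.49 in Tet1 KO, against 7.01, 7.22 and 6.70 in WT. Here the order was turned round, with Tet1 KO replicate 2 the lowest Tet1 KO array and the others the highest of the 6, and a difference of 0.38 (SE 0.29).

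Leaving out Tet1 KO replicate 2 widened the disagreement between these Exo1 probe sets. The difference at 1418026_at became -0.66, with a 95% interval from -1.05 to -0.26 and an unadjusted limma p of 0.00712, and that at 1418027_at became 0.66, with an interval from 0.15 to 1.17 and an unadjusted p of 0.0200. The adjusted p-values were 0.578 and 0.607. The third probe set, 1430225_at, read 5.03, 5.56 and 5.03 in Tet1 KO, against 4.52, 4.10 and 3.36 in WT. The groups did not overlap, and the difference of 1.22 (SE 0.32) had a 95% interval from 0.44 to 1.99, an unadjusted limma p of 0.00797 and an adjusted p of 0.686. It was 1.04 without Tet1 KO replicate 2. This probe set was dim, above the brightest bacterial control on 3 of 3 Tet1 KO and 1 of 3 WT arrays, so no fold is given. The mean of the 3 Exo1 probe sets, the dim one included, differed by 0.51 (SE 0.19), with an unadjusted limma p of 0.0326 and an adjusted p of 0.613, so the direction of Exo1 depended on whether the brightest probe set or the mean was taken.

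**Figure D2:**
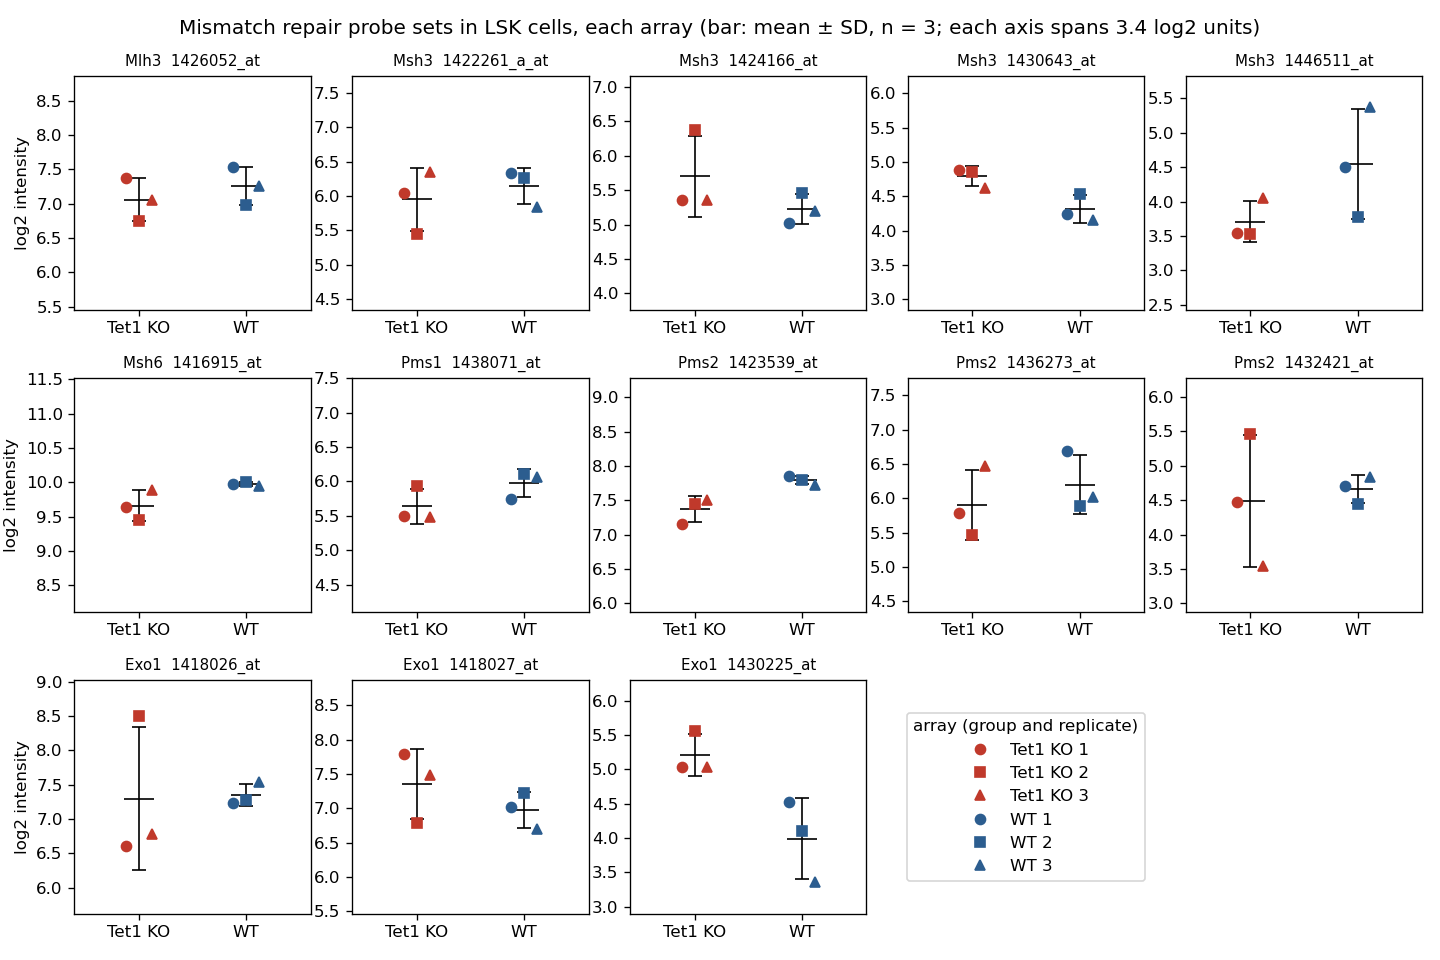
Log2 intensity (vertical) of the 13 mismatch repair probe sets on each of the Tet1 KO arrays (left in each panel) and WT arrays (right), with symbols for the replicate number and bars for the mean ± SD of 3 arrays. Msh6 1416915_at and Pms2 1423539_at have all Tet1 KO points below all WT points, and Msh3 1430643_at and Exo1 1430225_at all Tet1 KO points above.

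**Figure D3:**
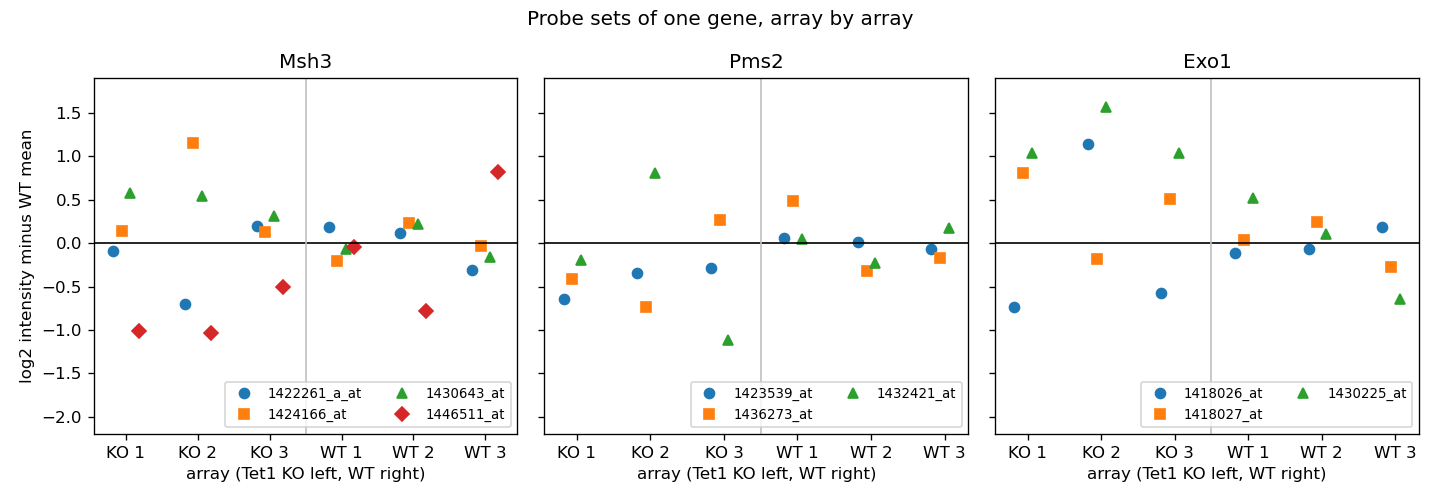
Log2 intensity minus the WT mean (vertical) on each array (horizontal, Tet1 KO left of WT) for every probe set of Msh3, Pms2 and Exo1, the genes with more than 1 probe set. The Msh3 points run from -1.03 to 1.15 on Tet1 KO replicate 2, and the Exo1 points from -0.74 to 1.04, -0.19 to 1.57 and -0.57 to 1.04 on Tet1 KO replicates 1, 2 and 3.

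The spread between arrays differed between the groups. The SD was larger in Tet1 KO than in WT at 10 of the 13 probe sets, or 76.9%, against 71.9% of all probe sets, so the members stood near the background in this. Their median SD was 0.32 in Tet1 KO and 0.22 in WT, and over all probe sets it was 0.30 in Tet1 KO and 0.17 in WT. Tet1 KO replicate 2 was the Tet1 KO array farthest from the mean of the other two at 7 of the 13 probe sets, against 49.0% of all probe sets. Without that array 8 of the 13 were lower, against 45.6% of all probe sets. An unadjusted limma p under 0.05 was then reached by 5 of 13, against 8.01% of all probe sets, while 0 of 13 had an adjusted p under 0.05, against 0% of all. The 5 were Pms1, Pms2 at its brightest probe set, and all 3 Exo1 probe sets, which differed in sign. The part of the array's overall quality in these values was not tested.

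**Figure D4:**
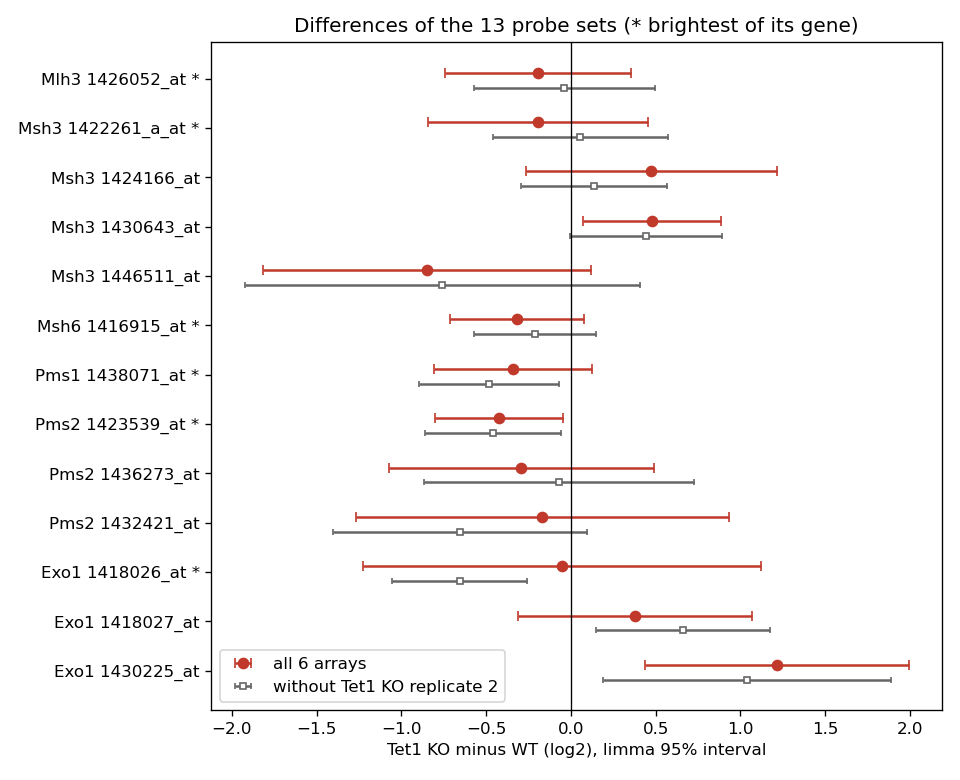
Difference between Tet1 KO and WT (log2, horizontal) with its limma 95% interval for each of the 13 probe sets, with all 6 arrays (filled) and without Tet1 KO replicate 2 (open). The brightest Exo1 probe set moves to -0.66 without that array, and the brightest Pms2 probe set lies at -0.42 and -0.46.

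The later steps of repair showed no called difference either. A list of 15 excision, resynthesis and ligation partners held Pcna, the sliding clamp, its loader Rfc1 to Rfc5, the single-strand binding subunits Rpa1 to Rpa3, the DNA polymerase delta subunits Pold1 to Pold4, the ligase gene Lig1 and Hmgb1. Of these, 14 had a probe set with a single symbol, and 10 of them were lower and 4 higher in Tet1 KO. The median difference of the 14 was -0.07. All 14 lay among the 11260 probe sets of highest mean intensity, of which 66.8% were lower, with a median of -0.12. None of the 14 passed in limma, with 0 at an adjusted p under 0.05 and 0 at an unadjusted p under 0.05. Of 18193 genes represented by their brightest probe set, 0% and 6.73% did so. Pcna read 11.62, 11.22 and 11.72 in Tet1 KO, against 11.79, 11.86 and 11.77 in WT, a difference of -0.29 (SE 0.18) with no overlap of the groups. Rpa2 was the other gene of the list without overlap, on the lower side too, at -0.36 (SE 0.18), and 6.88% of all genes were of this kind. Rpa2 is named after its values were seen, as are Pold4 and Mcm9 further on. Lig1, which seals the repaired strand, differed by -0.02 (SE 0.26).

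The meiotic MutS homologues and factors linked to the pathway were also without a call. Msh4 read 2.78, 3.16 and 3.02 in Tet1 KO, against 2.76, 2.58 and 2.66 in WT, which was under the brightest bacterial control on every array. Msh5 differed by -0.27 (SE 0.19) with overlapping groups. Of 8 linked factors 6 were measured, with 5 lower and 1 higher, a median of -0.07 and 0 at an unadjusted limma p under 0.05. Each lay among the 11260 probe sets of highest mean intensity, with 66.8% lower, or the 11259 next in level, with 53.2% lower. Setd2, which writes the histone mark that Msh6 reads, differed by -0.01 (SE 0.31), and Mbd4, a glycosylase that removes thymine mispaired at CpG sites, by -0.03 (SE 0.47). Mcm9, a helicase, differed by 0.48 (SE 0.23). Msh4 and Mcm9 were the genes of these lists whose groups did not overlap on the higher side, against 10.3% of all genes. Measured from the WT mean, the 6 brightest member probe sets had medians of -0.41, -0.43 and -0.24 on Tet1 KO replicates 1, 2 and 3, and the cycling-cell genes had medians of -0.14, -0.26 and 0.11. The part of cycling cells in the members' values was not tested. Of the 5 measured cycling-cell genes, 3 were higher and 2 lower, with 0 at an unadjusted p under 0.05 and Mki67 at 0.22 (SE 0.20).

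**Figure D5:**
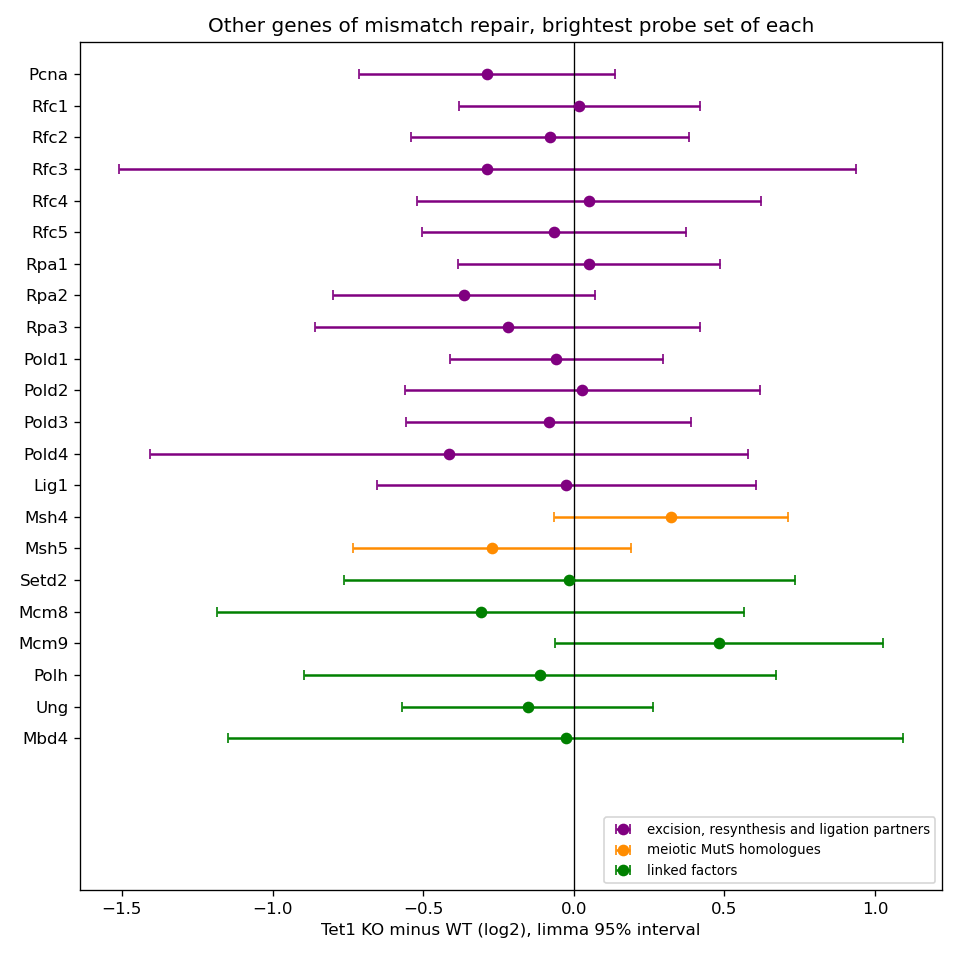
Difference between Tet1 KO and WT (log2, horizontal) with its limma 95% interval for the brightest probe set of each of 22 other genes of the pathway, coloured by list. All intervals include 0, and the values run from -0.41 for Pold4 to 0.48 for Mcm9.

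The MutL genes Pms1 and Pms2 each share their start region with a gene that runs the other way. In the RefSeq windows the start of Pms1 lay 67 bases from that of Ormdl1, which encodes a regulator of sphingolipid synthesis, and the start of Pms2 lay 162 bases from that of Aimp2, which encodes a scaffold of the tRNA synthetase complex. A start on the opposite strand within 1000 bases was found for 12.2% of 27025 genes. Ormdl1 read 6.35, 6.46 and 7.00 in Tet1 KO, against 6.68, 7.44 and 7.12 in WT, a difference of -0.48 (SE 0.27). Aimp2 read 7.94, 8.75 and 7.15 in Tet1 KO, against 8.47, 8.68 and 8.44 in WT, a difference of -0.58 (SE 0.39). Both neighbours were lower on average in Tet1 KO, as their MutL partners were, but the groups overlapped. The unadjusted limma p-values were 0.118 and 0.179. Aimp2 lay among the 11260 probe sets of highest mean intensity, with 66.8% lower, and Ormdl1 among the 11259 next in level, with 53.2% lower. Measured from the WT mean on Tet1 KO replicates 1, 2 and 3, Ormdl1 lay at -0.73, -0.62 and -0.08. Pms1 lay at -0.47, -0.05 and -0.50 there. Aimp2 lay at -0.59, 0.22 and -1.37, and Pms2 at its brightest probe set at -0.64, -0.35 and -0.29. The part of the shared start regions in these values was not tested. These neighbours were named after the start regions had been examined.

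Genes whose values ran most like those of each member over the 6 arrays were named by a rule, as a description. The measure was the Pearson correlation between brightest probe sets, among 8838 genes above the median level. For Msh6 these were Cct2, a chaperonin subunit, and Sertad1, both at 0.998. For Msh3 they were Otud5 at 0.991 and Nup62 at 0.990, for Pms2 Pklr at 0.982 and Ica1 at 0.980, and for Pms1 Tra2a at 0.984 and Gars at 0.982. Mlh3 ran with Jarid2, a cofactor of Polycomb repression, at 0.985 and with Bpifc at 0.981, and Exo1 with Arhgef7 at 0.996 and Ifi47 at 0.988. Between 62 and 322 of the 8838 genes exceeded 0.9 for each member. The 6 points of each correlation share their arrays and groups.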

How the data were processed

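Total RNA of 6 LSK samples was measured on Affymetrix arrays, after labelling of cDNA from 125 ng, per the labels' protocols. The deposited table holds log2 intensities for 45101 probe sets, made by the authors. Their range, 1.50 to 14.58, gave the scale. Background correction, normalization and summarization are not given in the sources used here. Groups and replicate numbers came from the sample titles.

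Values were used as deposited. After 64 controls were left out, 45037 probe sets were fitted in limma 3.58.1 under R 4.3.3 (lmFit, eBayes, genotype as the only term, two-sided), with Benjamini-Hochberg adjustment over all of them at 0.05. A platform annotation gave 1 symbol to 34945 probe sets and several to 932. A gene's brightest probe set over all arrays stood for it where 1 value was needed, and list genes with no probe set of 1 symbol were not used here. Intervals are 95% intervals of the moderated fit, and the number of arrays limits the precision. The fit was tested on simulated data. The members, lists and alternatives, and the rule for named genes (all member probe sets, Tet1, list genes at an unadjusted p under 0.05 and 6 fixed ones, the 2 genes most like each member), were chosen with earlier results of these data known. Alternatives were other normalizations, filters on level, summaries per gene, eBayes with trend, array weights, a replicate block, Xist level as a covariate and leaving out each array. Figures were drawn with matplotlib 3.10.9.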

Additional observations from a re-analysis of the deposited data

How the results depend on the processing

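Of 197 recomputed differences of member probe sets, 190 kept their sign and 0 reached an adjusted limma p under 0.05. The level filters, the choice of the brightest probe set, eBayes with trend and the replicate block leave a probe set's difference unchanged. Its sign could not change in those settings, which are counted among the 190. The 7 changes of sign were at 3 probe sets. For Exo1 1418026_at the value was 0.023 with quantile normalization and 0.056 with cyclic loess, and it ran from -0.656 without Tet1 KO replicate 2 to 0.288 without Tet1 KO replicate 1, with 0.037 without WT replicate 3 and 0.203 without Tet1 KO replicate 3. For Msh3 1422261_a_at it ran from -0.395 without Tet1 KO replicate 3 to 0.054 when Tet1 KO replicate 2 was left out, and for Pms2 1432421_at from -0.653 without Tet1 KO replicate 2 to 0.308 when Tet1 KO replicate 3 was. The cause was not tested. The member count at an unadjusted limma p under 0.05 was 3 with all arrays, against 6.81% of all probe sets. It ran from 1 to 5 when 1 array was left out, while the share of all probe sets ran from 3.46% to 10.3%. It was 1 without WT replicate 1, WT replicate 3 or Tet1 KO replicate 1, against 3.46%, 4.51% and 10.3% of all. It rose to 5 when Tet1 KO replicate 2 was left out, against 8.01%. Among 9 probe sets above the median level, where fewer were tested, it was 0, against 6.13%. Among 6 genes it was 1 with the brightest probe set or the mean of probe sets, against 7.21% and 7.95% of all genes. The pathway count, 0 of 22 genes with all arrays, against 6.73% of all genes, ran from 0 to 1 when 1 array was left out. It was 1 with quantile normalization, cyclic loess, the mean of probe sets and array weights. The shares of all that was tested in these settings were 5.57%, 5.65%, 7.95% and 7.53%. Over all probe sets 0 passed the adjusted threshold in every setting but eBayes with a trend and robust estimation, which gave 1. With the replicate number as a block, the member counts were 0 called and 3 at an unadjusted limma p under 0.05, against 5.32% of all probe sets. Msh3 1446511_at, at 0.0238, was among these 3, and Pms2 1423539_at, at 0.0817, no longer was. Same-numbered samples did not deviate together over all probe sets, with correlations of 0.01, -0.01 and 0.00054. These rest on 3 arrays a group and cannot decide whether the numbers pair the samples. Replicate 3 was the array with Xist near background in both groups, at 3.82 in Tet1 KO and 4.58 in WT. Signal near the bacterial control level limits Exo1 1430225_at, Msh3 1430643_at, Msh3 1446511_at and Pms2 1432421_at, which did not exceed it on all arrays.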
